A study of Rattus norvegicus with 24 samples.

Results

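Overloaded plantaris of LRT rats was compared with overloaded plantaris of HRT rats, using the 12 overloaded libraries (6 a line) of the 24 in the series. The plantaris is a calf muscle of the rat hindlimb. HRT and LRT are rat lines bred for high (HRT) and low (LRT) gains in running capacity with endurance training. All rats were female, 14 months old and of generation 19 of their line. In the overloaded groups of both lines the gastrocnemius and soleus were removed unilaterally, and the plantaris was taken after 14 days. The other 12 libraries are control plantaris, 6 a line, and serve here only to show whether a line difference was also present without overload. The labels do not say whether each library is a separate animal, or whether control muscles came from the unoperated leg of overloaded rats. The p-values therefore measure the spread between these libraries.

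Removing the gastrocnemius and soleus, its synergists, places more load on the plantaris, and the muscle grows. Fibre enlargement is accompanied by inflammation, activation of satellite cells (the resident muscle stem cells), growth of connective tissue and blood vessels, and a shift of fibres toward slower, more oxidative types. Bulk RNA holds transcripts of all these cells, so fewer cells of a type and less RNA per cell cannot be told apart. The deposited table gives Ensembl gene IDs without names, and 0 of its 31998 IDs matched the name table used here. For that reason only IDs appear, no more than 2 each way in a comparison, gene functions are not stated, and the tissue label was not checked against muscle markers.

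The overloaded libraries held 29188698 to 34254957 estimated counts each, and 16257 genes passed the count filter, with 99.93% of those counts. RNA integrity numbers (RIN, a scale of RNA quality) were 8.6 to 9.4 in the HRT and 8.2 to 8.9 in the LRT libraries, with means of 8.97 and 8.67 (exact permutation p = 0.128, two-sided). The 10 most abundant genes took 26.7% ± 2.16 (SD, n = 6) of the counts in overloaded HRT and 29.1% ± 1.24 in overloaded LRT muscle (exact permutation p = 0.0498, two-sided). The library ranges of 24.5% to 29.7% and 26.9% to 30.3% overlapped, and over the 4 library measures tested the Benjamini-Hochberg adjusted p was 0.17. Genes with at least 1 count numbered 21486 ± 425 in overloaded HRT and 21313 ± 384 in overloaded LRT muscle (exact permutation p = 0.494, two-sided).

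Overloaded muscles of the same line differed widely from each other, and the main axis of variation did not separate the lines. The first principal component of log2 CPM (CPM: counts scaled to a common library total) held 34.8% of the variance. On it HRT overload replicates 1, 2 and 6 lay between −47.2 and −40.0, and HRT overload replicates 3, 4 and 5 lay between 1.60 and 23.8. LRT overload libraries ran from −21.6 in replicate 2 to 43.3 in replicate 5, so the lines overlapped. HRT replicates 1, 2 and 6 also had the lowest shares of counts in the 10 most abundant genes (25.1%, 25.3% and 24.5%), while HRT replicates 3, 4 and 5 (28.9%, 29.7% and 26.9%) lay within the LRT range. The second component, with 12.5% of the variance, held all HRT overload libraries between −30.0 and 3.11 and all LRT overload libraries between 6.83 and 20.1. The groups did not overlap there, with HRT replicate 6 nearest to the LRT libraries. Pairs of libraries correlated at r = 0.950 to 0.988 over genes, with a median of 0.979 within a line and 0.975 between lines. For the median gene the SD of log2 CPM was 0.247 in HRT overload and 0.210 in LRT overload, against 0.157 and 0.183 in HRT and LRT control. The overload medians are over the 16257 genes tested in overloaded muscle and the control medians over the 15456 tested in control muscle. Each state was scaled on its own. The SD was larger in HRT than in LRT overload for 60.4% of genes tested in overloaded muscle.

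**Figure D1:**
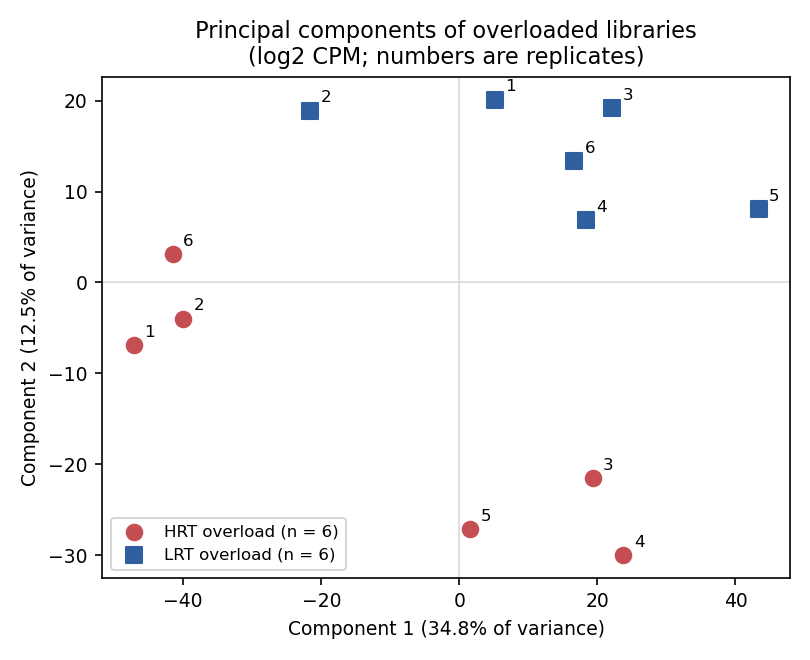
Each point is 1 overloaded library on the first (x) and second (y) principal component of log2 CPM, numbered by replicate, with HRT as circles and LRT as squares. The lines overlap along the first component, where HRT replicates 1, 2 and 6 lie at the left end, and are apart along the second, with HRT at 3.11 or below and LRT at 6.83 or above.

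Fitted alone, the overloaded libraries differed between lines in 115 genes (edgeR quasi-likelihood test, Benjamini-Hochberg, BH, adjusted p under 0.05), which is 0.707% of the genes tested. Of these, 82 genes (0.504%) were higher in LRT and 33 (0.203%) were lower in LRT. An unadjusted p under 0.05 was found for 2727 genes, 1255 higher and 1472 lower in LRT. The median LRT minus HRT difference of all tested genes was 0.00145 (log2). The larger number of higher genes depended on scaling. With libraries scaled by their totals alone the median moved to −0.154, and 37 genes were higher and 72 lower in LRT. None of the 115 genes changed sign under that scaling, but only 65 of them were among the 109 genes that passed with it.

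The 115 genes differed mostly by moderate amounts. Among the 82 higher in LRT, 28 differed more than 2-fold, 33 between 1.5-fold and 2-fold, and 21 less than 1.5-fold, with log2 differences from 0.354 to 2.53 and a median of 0.876. Among the 33 lower in LRT these numbers were 13, 9 and 11, with log2 differences from −0.313 to −4.73 and a median of −0.736. Size alone did not decide the test. Of 238 tested genes with a difference over 2-fold, 87 higher and 151 lower in LRT, 197 did not pass. Of the 30 over 4-fold, 13 passed.

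Genes that passed were found at all levels of expression. With the tested genes ranked by abundance and cut into 4 bins of equal size, the lowest bin held 28 of them, the next bins 35 and 22, and the most abundant bin 30. Their median absolute log2 difference was 1.52 in the lowest bin and 0.732 in the highest. Of the 100 most abundant genes 2 passed, and both were higher in LRT. Genes higher in LRT had a median of 8.09 CPM over the overloaded libraries and genes lower in LRT one of 7.58 CPM, beside 9.30 CPM for all tested genes. No gene had at most 3 counts in each library of one line and at least 10 in each library of the other, so no gene was near silent in a whole line and clearly expressed in all libraries of the other.

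**Figure D2:**
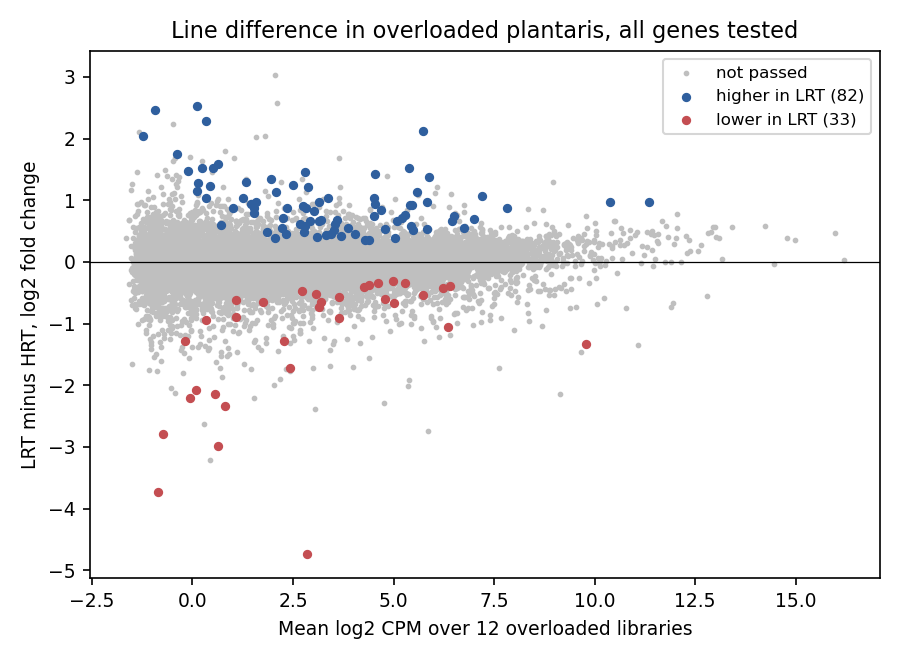
Each point is 1 of the 16257 tested genes, with its mean log2 CPM on x and its LRT minus HRT log2 fold change in overloaded muscle on y. Genes that passed (82 higher in LRT, 33 lower in LRT) lie at all levels, and many grey points with differences as large did not pass.

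Of the 115 genes, 101 had CPM ranges that did not overlap between the lines, 71 of the higher and 30 of the lower genes. Over all tested genes 259 had ranges that did not overlap (1.59%), 143 higher and 116 lower in LRT. The remaining 14 genes passed although at least 1 library of a line lay inside the range of the other.

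Among genes that passed and whose mean log2 CPM reached 1, the gene highest in LRT relative to HRT was ENSRNOG00000029954. Its CPM in HRT overload replicates 1 to 6 were 11.5, 11.3, 29.2, 20.9, 23.5 and 12.2. In LRT overload they were 73.3, 71.5, 93.5, 88.3, 71.7 and 74.2. The lowest LRT library was thus more than 2-fold above the highest HRT library, and HRT replicates 1, 2 and 6 were the lowest of all. The gene was 4.38-fold higher in LRT (log2 fold change 2.13 ± 0.235 (SE), edgeR BH-adjusted p = 0.00291). In control muscle it was at 40.5 ± 4.59 CPM (SD, n = 6) in HRT and 104 ± 54.2 in LRT, where replicates 1 and 2 (42.1 and 54.9 CPM) lay far below replicate 6 (195 CPM). That control difference had a log2 fold change of 1.33 and just missed the threshold (edgeR BH-adjusted p = 0.0508). It passed in the model of all 24 libraries (1.36, edgeR BH-adjusted p = 0.012) and with libraries scaled by totals alone (1.25, edgeR BH-adjusted p = 0.0476). Without the count filter the control difference did not pass (1.33, edgeR BH-adjusted p = 0.0824). The test of whether the line difference itself differed between overloaded and control muscle gave 0.77 on the log2 scale (edgeR BH-adjusted p = 0.399).

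ENSRNOG00000032609 was next in size among genes higher in LRT with a mean log2 CPM that reached 1. HRT overload replicates 1 to 6 had 20.7, 16.0, 23.9, 18.3, 23.0 and 15.8 CPM, and LRT overload replicates had 64.7, 51.4, 70.1, 39.1, 54.4 and 56.8 CPM. The groups did not overlap, and LRT replicate 4 was nearest to the HRT libraries. The gene was 2.88-fold higher in LRT (log2 fold change 1.53 ± 0.148, edgeR BH-adjusted p = 0.00152). In control muscle the lines overlapped, at 46.8 ± 8.07 CPM in HRT and 63.7 ± 20.8 in LRT (log2 fold change 0.43, edgeR BH-adjusted p = 0.267). The difference between these line differences was 1.07 (edgeR BH-adjusted p = 0.103). In HRT the gene fell with overload by 1.25 on the log2 scale (edgeR BH-adjusted p = 3.7e-06, from the model of all 24 libraries). In LRT the change was −0.185 (edgeR BH-adjusted p = 0.398), or 0.0664 with libraries scaled by totals alone. These overload changes share the overloaded libraries with the line difference.

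The largest difference in the other direction under the same limit was in ENSRNOG00000019050, which was low in every LRT library and scattered in HRT. HRT overload replicates 1 to 6 had 6.48, 17.9, 3.97, 8.91, 0.298 and 37.3 CPM. LRT overload replicates had 0.366, 0.432, 0.428, 0.581, 0.562 and 0.401 CPM. HRT replicate 5 lay below all LRT libraries, so the groups overlapped by that library alone. LRT stood lower by a log2 fold change of −4.73 ± 0.843 (edgeR BH-adjusted p = 0.0227). HRT control libraries were also scattered, with 0.714, 0.665 and 0.701 CPM in replicates 1, 3 and 4 and 13.3, 7.47 and 6.03 CPM in replicates 2, 5 and 6. LRT control libraries had 0.396 to 0.777 CPM. The line difference in control muscle, −3.005 on the log2 scale, did not pass (edgeR BH-adjusted p = 0.0816). In overloaded muscle the gene did not pass in 13 of 25 alternative settings, including 6 in which 1 library was omitted (HRT replicate 2, or any LRT library but replicate 2, with edgeR BH-adjusted p from 0.0501 without HRT replicate 2 to 0.0653 without LRT replicate 3). The others included limma-voom (adjusted p = 0.255), RIN as a covariate (edgeR BH-adjusted p = 0.0636) and no filter (edgeR BH-adjusted p = 0.0721).

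ENSRNOG00000042788 was next among genes lower in LRT under that limit. HRT overload replicates 1 to 6 had 12.9, 9.60, 5.29, 6.69, 7.33 and 3.08 CPM, and LRT overload replicates had 2.29, 2.45, 1.91, 3.52, 0.761 and 2.50 CPM. The groups overlapped through HRT replicate 6 and LRT replicate 4. The gene was 3.31-fold higher in HRT (log2 fold change of LRT minus HRT −1.73 ± 0.348, edgeR BH-adjusted p = 0.0402). The control difference was of like size, at 3.75 ± 1.39 CPM in HRT and 1.29 ± 0.655 in LRT (log2 fold change −1.55, edgeR BH-adjusted p = 0.0318), and the difference between states was −0.20 (edgeR BH-adjusted p = 0.894). Leaving out any of 9 of the 12 overloaded libraries (all but HRT replicates 3 and 6 and LRT replicate 4) ended its call in overloaded muscle, with an edgeR BH-adjusted p of up to 0.108 without LRT replicate 3. The call was also lost with no filter (edgeR BH-adjusted p = 0.0722, and 0.0661 in control muscle), with limma-voom (adjusted p = 0.0732), with 1 surrogate variable (0.0551), and with the replicate number as a block in the model (the replicate block), alone (0.0719) or with RIN (0.106).

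**Figure D3:**
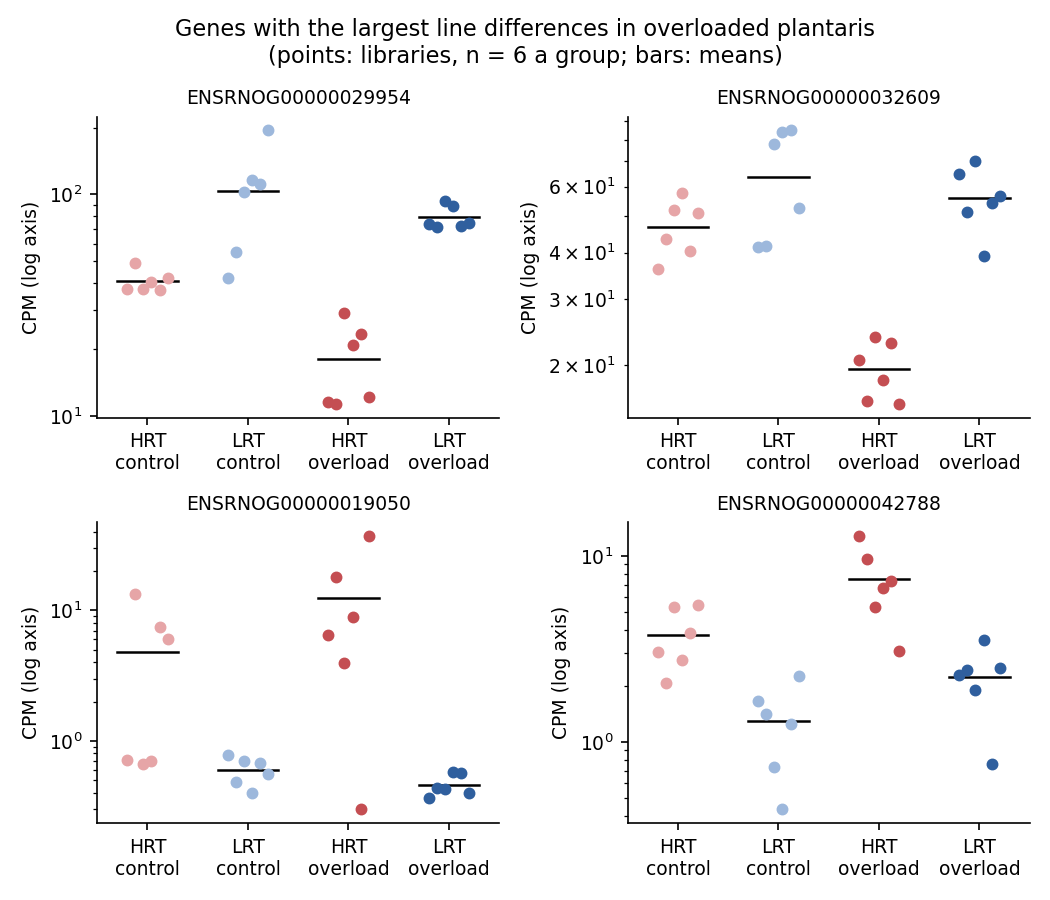
CPM on a log axis (y) in each library of the 4 groups (x, n = 6 each, bars are means) for the 2 genes with the largest differences in each direction among genes whose mean log2 CPM reached 1. In the upper panels the LRT overload libraries lie above all HRT overload libraries, and in the lower panels 1 HRT overload library reaches into or below the LRT range.

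The line difference in control muscle was measured in separate libraries, although these may share animals with the overloaded ones. Of the 115 genes, 110 were tested there, and 94 of them (85.5%) differed in the same direction, beside 57.6% of all 15311 genes tested in both states. The genes not tested there did not pass the count filter in control muscle, so the 85.5% leaves them out. All were lower in overloaded LRT muscle, with log2 differences from −2.08 to −3.72. The same direction was found for 71 of 82 genes higher and 23 of 28 tested genes lower in overloaded LRT muscle. The differences were smaller in control muscle. The 82 higher genes had a median log2 difference of 0.317 there and the lower genes one of −0.315, beside −0.00754 for all genes tested. Since the 115 genes were chosen on their differences in overloaded muscle, their medians there are raised by that choice.

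Control muscle fitted alone gave 491 genes that differed between lines (3.18% of those tested), 289 higher and 202 lower in LRT. Both states called 23 genes, which is 20.9% of the tested overload list and 4.68% of the control list. Of these, 18 were higher in LRT in both states, 4 were lower in both, and 1 turned. The largest control differences among the genes that kept their direction are given next, for genes not yet named whose mean log2 CPM reached 1. They were chosen after their values were seen.

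ENSRNOG00000042253 was higher in LRT in each state with no overlap between lines. Its CPM ranged from 3.24 to 5.61 in HRT overload and from 7.43 to 10.4 in LRT overload (log2 fold change 1.21 ± 0.137, edgeR BH-adjusted p = 0.00291). In control muscle the log2 fold change was 1.88 (edgeR BH-adjusted p = 6.79e-09). ENSRNOG00000061005 ranged from 2.73 to 3.56 CPM in HRT overload and from 5.18 to 6.75 CPM in LRT overload (log2 fold change 0.87 ± 0.101, edgeR BH-adjusted p = 0.00291). It had a log2 fold change of 1.29 in control muscle (edgeR BH-adjusted p = 0.0131). For both genes the control difference was the larger, but the difference between states did not pass (edgeR BH-adjusted p = 0.0908 and 0.451). Each lost its call in overloaded muscle in 1 setting, the replicate block with RIN (edgeR BH-adjusted p = 0.0577 for both).

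Among genes lower in LRT in each state, ENSRNOG00000015480 had 3.43 to 4.07 CPM in HRT overload and 2.12 to 2.90 CPM in LRT overload (log2 fold change −0.65 ± 0.105, edgeR BH-adjusted p = 0.0127; −1.10 in control muscle, edgeR BH-adjusted p = 0.0281). Its call in overloaded muscle was lost in the model of all 24 libraries (log2 fold change −0.66, edgeR BH-adjusted p = 0.0545) and with RIN as a covariate (−0.61 and 0.0545, or −0.59 and 0.087 with the replicate block added). ENSRNOG00000037595 had 26.2 to 37.0 CPM in HRT overload and 15.6 to 26.2 CPM in LRT overload, so that the ranges met at HRT replicate 1 and LRT replicate 6 (log2 fold change −0.60 ± 0.122, edgeR BH-adjusted p = 0.0413; −0.55 in control muscle, edgeR BH-adjusted p = 0.00518). It did not pass without any of 9 overloaded libraries (all but HRT replicate 3 and LRT replicates 2 and 6), with a BH-adjusted p from edgeR of up to 0.113 without LRT replicate 3, nor with RIN as a covariate (edgeR BH-adjusted p = 0.119, or 0.0803 with the replicate block added).

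**Figure D4:**
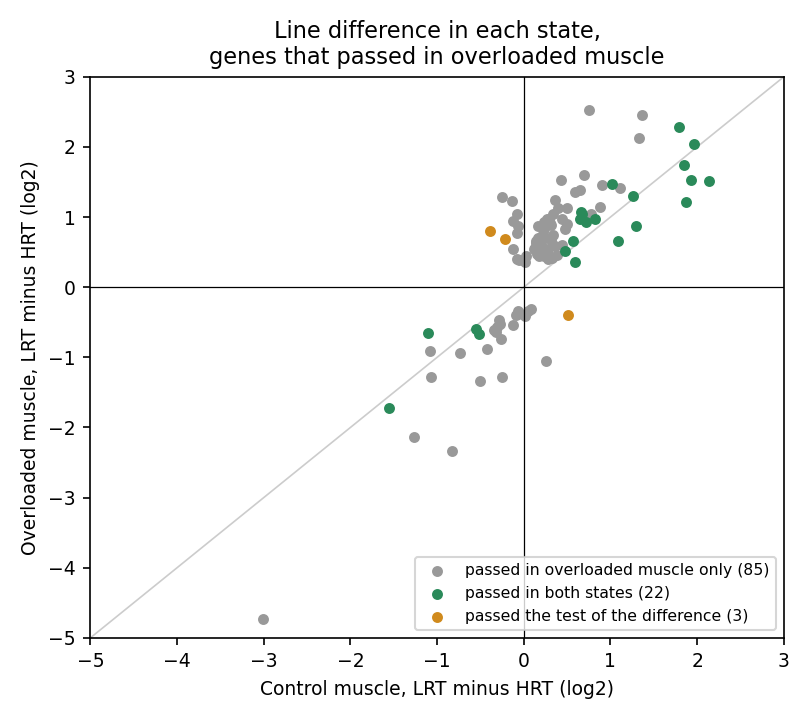
Each point is 1 of the 110 genes that passed in overloaded muscle and were tested in control muscle, with its LRT minus HRT log2 difference in control muscle on x and in overloaded muscle on y (grey line: equal values). Of these, 94 lie in the quadrants of equal sign. Green points passed in both states (22), and orange points passed the test of the difference between states (3, of which the one below 0 on y also passed in control muscle).

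Whether a line difference was specific to overloaded muscle was tested as the difference between the line differences, in a model of all 24 libraries. Over all genes 8 passed (0.048%), and 2265 had an unadjusted p under 0.05. Of the 115 genes 3 passed, named here although they were chosen after their values were seen. The test shares the overloaded libraries with the comparison that chose the 115 genes, so this count is a description. ENSRNOG00000005850 had 4.51 to 7.24 CPM in HRT overload and 7.62 to 13.6 CPM in LRT overload (log2 fold change 0.69 ± 0.144, edgeR BH-adjusted p = 0.0477), and the lines stood at 12.7 ± 1.57 and 11.1 ± 0.818 CPM in control muscle (log2 fold change −0.22, edgeR BH-adjusted p = 0.152). Its difference between states was 0.88 (edgeR BH-adjusted p = 0.046), and 0.84 with libraries scaled by totals alone (edgeR BH-adjusted p = 0.0566). ENSRNOG00000052669 had 1.48 to 2.51 CPM in HRT overload and 2.39 to 3.87 CPM in LRT overload (log2 fold change 0.80 ± 0.162, edgeR BH-adjusted p = 0.0413), with a difference of 1.16 from the line difference in control muscle (edgeR BH-adjusted p = 0.046).

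ENSRNOG00000015225 was the gene whose line difference turned. In HRT overload it had 17.2 to 23.2 CPM and in LRT overload 13.7 to 16.2 CPM (log2 fold change −0.40 ± 0.0827, edgeR BH-adjusted p = 0.046). In control muscle it was lower in HRT, at 10.8 to 12.8 CPM, than in LRT, at 13.6 to 18.9 CPM (log2 fold change 0.51, edgeR BH-adjusted p = 0.00507). The lines did not overlap in either state, in opposite order, and the difference between states was −0.94 (edgeR BH-adjusted p = 0.000234). In overloaded muscle alone the calls of these 3 genes were near the threshold. That of ENSRNOG00000015225 was lost without any library but HRT replicates 3 and 4 and LRT replicate 2 (edgeR BH-adjusted p up to 0.121), and that of ENSRNOG00000052669 without any library but the same 3 (up to 0.108). That of ENSRNOG00000005850 was lost without any but HRT replicates 3 and 4 and LRT replicate 1 (up to 0.109). Each of these highest values was found without LRT replicate 3. In the order ENSRNOG00000015225, ENSRNOG00000052669 and ENSRNOG00000005850, the calls were also lost with libraries scaled by totals alone (edgeR BH-adjusted p = 0.0677, 0.0536 and 0.0719), with RIN as a covariate (0.081, 0.0684 and 0.0778) and with RIN and the replicate block (0.0724, 0.0621 and 0.0788). With limma-voom ENSRNOG00000015225 (adjusted p = 0.0517) and ENSRNOG00000005850 (0.0529) were lost, and the former also with no filter (edgeR BH-adjusted p = 0.0608) and the stricter filter (0.0551).

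For the whole set of 115 genes, each line's own overload change is set beside the other's. The 82 genes higher in LRT had a median overload change of −0.631 in HRT (quartiles −1.01 and −0.349) and of −0.207 in LRT (quartiles −0.473 and 0.0175), on the log2 scale. The 33 genes lower in LRT had a median of 0.806 in HRT (quartiles 0.512 and 1.56) and of 0.342 in LRT (quartiles 0.126 and 0.814). The medians of all genes were −0.0245 in HRT and −0.0223 in LRT. Because these changes use the same overloaded libraries that chose the genes, they describe where the 4 groups stood and carry no test.

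The number of line differences depended strongly on which libraries were in the fit. With 1 overloaded library left out at a time, the count ran from 56 to 221. It was 56 without LRT replicate 3, 57 without HRT replicate 1, 61 without HRT replicate 2 and 67 without HRT replicate 5. It was 70 without LRT replicate 1, and 75 without HRT replicate 6 or without LRT replicate 4. It rose to 221 without HRT replicate 3 and to 197 without LRT replicate 2. Each of these 9 libraries moved the count by over 1.5 times. The other 3 gave 148 (HRT replicate 4), 82 (LRT replicate 5) and 87 (LRT replicate 6). Passing in each of the 12 fits were 49 of the 115 genes, 34 higher and 15 lower in LRT. A set of 11 genes, 9 higher and 2 lower, passed in all 26 other settings, and it included ENSRNOG00000029954 and ENSRNOG00000032609.

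**Figure D5:**
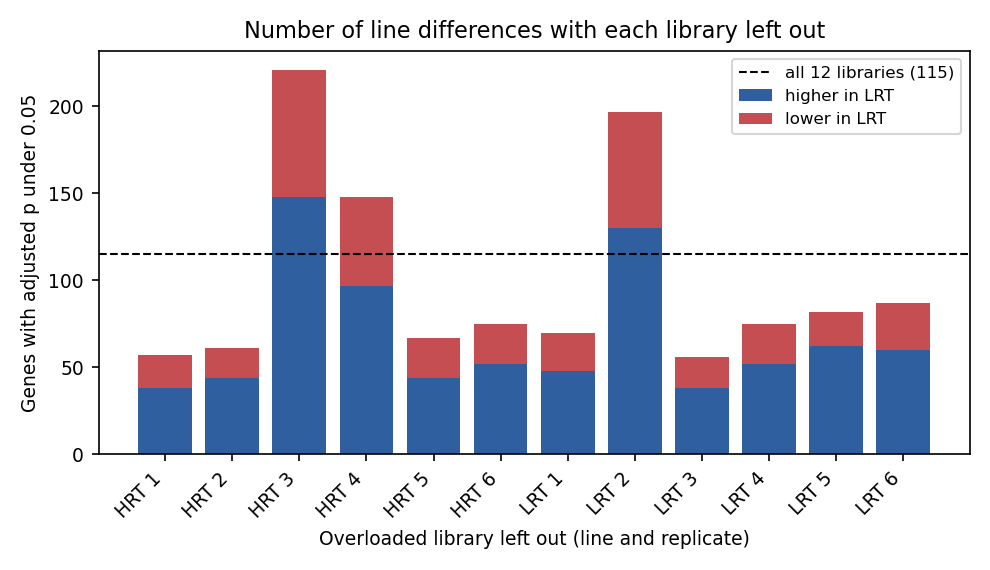
Bars give the number of genes with an edgeR BH-adjusted p under 0.05 (y) when the overloaded library named on x is left out, split into genes higher and lower in LRT, with the 115 of all 12 libraries as a dashed line. The count falls to 56 without LRT replicate 3 and rises to 221 without HRT replicate 3, and higher genes outnumber lower genes in each fit.

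A model of all 24 libraries, which shares 1 estimate of the spread per gene between control and overloaded muscle, gave 514 line differences in overloaded muscle (3.09%), 266 higher and 248 lower in LRT. It called 106 of the 115 genes. Since the spread was larger in overloaded than in control libraries, the fit of the overloaded libraries alone is the result given here. Mean RIN was lower in overloaded LRT muscle, as given above, and with RIN as a covariate 63 genes passed, 50 of them among the 115. With RIN and the replicate number together 32 genes passed, 21 of them among the 115, and with the replicate number alone 155 passed.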

How the data were processed

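RNA of 24 rat plantaris samples was sequenced from Illumina TruSeq libraries, per the labels' protocols. The values deposited are unscaled estimated counts, 1 per gene and library. Salmon (version 0.9.1), Rnor_6.0 and rn6 are named in the submitters' processing notes. Its settings and the annotation are not given in the sources used. Reads shared by similar genes are split by such estimates, which makes near-identical genes uncertain.

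Counts were rounded before fitting. The 12 overloaded libraries were fitted alone, with filterByExpr (minimum count 10, minimum total 15), TMM scaling and the robust quasi-likelihood F-test of edgeR 4.0.16 in R 4.3.3. Control libraries were fitted alone likewise, and the difference between states used all 24. Standard errors were approximated by dividing each absolute log2 fold change by the root of its F. Printed CPM are scaled by TMM over all 24 libraries. Named genes are the largest log2 fold changes among passing genes whose mean log2 CPM reached 1, 2 per direction because no IDs matched names. The 35 gene lists prepared were not tested for that reason. Members, lists and tests were chosen with earlier results of these data known.

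On simulated counts (16074 genes tested, 200 changed) recovery was 28.4% at a 1.5-fold change, 76.1% at 2-fold and 95.5% at 4-fold, and 11 unchanged genes were called. Each gene was simulated independently, without the variation that many genes share between the real libraries. These rates may therefore not hold for the real data. No 2 overloaded libraries of a line were duplicates: over 30 pairs chi-square was at least 22.3 per degree of freedom. Library measures were compared by exact permutation over 924 splits. Alternatives used DESeq2 1.42.0, limma 3.58.1 and sva 3.50.0. Plots used matplotlib 3.10.9.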

Additional observations from a re-analysis of the deposited data

Results flagged for a closer look

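The line difference of ENSRNOG00000015225 changed by −0.94 on the log2 scale from control to overloaded muscle, that of ENSRNOG00000005850 by 0.88 and that of ENSRNOG00000052669 by 1.16, each past the test of the difference between states (edgeR adjusted p = 0.000234, 0.046 and 0.046). With libraries scaled by totals alone ENSRNOG00000005850 did not pass that test (edgeR adjusted p = 0.0566), and ENSRNOG00000052669 passed narrowly (0.0482). Over 56 groups of 6 values checked for a value far from its neighbours, 2 stood out, while chance gives about 1 in 20. HRT control replicate 1 had 36.4 CPM of ENSRNOG00000037595, below the others of its group. LRT overload replicate 2 had 22052 detected genes, above the others of its group, and without it the difference in detected genes, LRT minus HRT, was −321 in place of −173 (exact permutation p = 0.145 and 0.494).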

How the results depend on the processing

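The count of 115 became 514 in the model of all 24 libraries, 521 with the DESeq2 Wald test, 1278 with limma-voom and sample weights, 63 with RIN as a covariate and 410 with 1 surrogate variable, which was chosen after seeing the data. It was 56 to 221 with single libraries left out. The cause was not tested. Other settings gave 91 to 155. With the replicate number as a block (replicate block) it was 155, of which 86 were among the 115, and with the replicate block and RIN together it was 32. The labels do not say whether same-numbered libraries of the lines share more than a number. Their deviations correlated at r = −0.147 to 0.394, and 2 of 6 HRT libraries correlated best with their own number. So few pairs cannot decide the question. None of the 115 genes changed sign in any of the 26 settings. Among the genes called in the model of all 24 libraries, the share with the same sign in control muscle was 74.5%. This is a different set from the 110 genes behind the 85.5% given above. The difference in the share of the 10 most abundant genes was 1.90 to 2.94 percentage points with single libraries left out, and 9 of these 12 missed 0.05. That in detected genes was −321 to −89.9. With libraries scaled by totals alone, overload changes that had not passed turned sign in LRT for ENSRNOG00000032609 (0.0664), ENSRNOG00000061005 (0.1085), ENSRNOG00000005850 (0.1162) and ENSRNOG00000015225 (0.1162), and in HRT for ENSRNOG00000015480 (0.1002).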
